A study of Mus musculus with 8 samples.

Results

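Conjugated bile acids, here the taurine, glycine and sulfate conjugates, were examined in faeces of age-matched female C57BL/6 mice, an inbred laboratory strain. The study had 4 untreated samples and 4 samples collected 24 h after an oral gavage of 20 mg of the aminoglycoside streptomycin. All samples came from the same strain and sex, and no age, allele or other treatment is given in the labels. The extracts were infused, with no chromatography, and masses were measured by ion cyclotron resonance in both ion modes, and each of the 2 acquisitions per sample gave a relative intensity per neutral mass. A member was a row of the deposited table within 3 ppm of the neutral mass of 1 of 14 formulas, or of that mass less 1 proton. The rule used no intensity, but it was set with earlier results of these data known. This gave 16 of 2429 rows, 0.659% of the table, which stand for 10 of the 14 formulas. Of these rows 11 lay at the neutral mass and 5 at the mass less 1 proton. The name of an acid stands for a formula throughout, and isomers such as taurocholic and tauromuricholic acid share it.

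Bile acids are made from cholesterol in the liver, which couples them to taurine or glycine before secretion. In mice nearly all of this coupling is to taurine, and muricholic acids stand beside cholic acid as the main primary acids. Bile salt hydrolases of gut bacteria cut the taurine or glycine off, and other bacterial enzymes remove a ring hydroxyl, turning cholic into deoxycholic acid, or oxidise hydroxyls to oxo groups. Sulfation, by host sulfotransferases, makes bile acids more soluble and less readily reabsorbed, and bacterial sulfatases can reverse it.

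The comparison asked how the conjugates in the gut contents differed 24 h after a single antibiotic dose. Member masses with taurine were high after streptomycin and low or listed at 0 before it, except the neutral mass of taurocholic acid sulfate. The largest was at taurocholic acid sulfate less 1 proton, with a mean relative intensity of 925 ± 212 (SD, n = 4) in the streptomycin samples, the rank 6 mass of the whole table in that group, and was listed at 0 in all 4 untreated samples. Masses at taurocholic and taurodeoxycholic acid plus hydrogen chloride, which are not members, went the other way. Their means fell from 60.6 to 22.3 and from 48.8 to 18.7, and which compounds they are is not settled by mass. The sulfates without taurine did not move together. Lithocholic acid sulfate fell, deoxycholic acid sulfate did not pass the test, and cholic acid sulfate rose.

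Per the labels faeces were collected before and again after treatment, so the effect of the drug and that of the day cannot be told apart. The labels do not tie a numbered sample to a mouse. Each p-value is therefore set against the spread of these samples alone, part of which may be technical. Untreated samples listed 1210 to 1270 masses with total intensities of 19761 to 20140, and streptomycin samples 1633 to 1768 masses with totals of 21600 to 23221. Both calibrant masses, which were added to every extract, were higher in streptomycin samples, by 0.39 ± 0.11 at 621.0216 Da and 0.46 ± 0.12 at 921.0027 Da (log2, SE, n = 4 per group). Their part in the differences below was tested by scaling to them. The number of ions behind an intensity is unknown, and the response of the instrument differs between compounds, so intensities of different masses are not amounts.

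The 16 rows are not 16 separate signals. Every mass was listed by a group in 6 or more of its 8 acquisitions or in none, so a 0 stands for fewer than that, and ratios against a group of zeros are left out. Lithocholic, deoxycholic and cholic acid sulfate each stood on a row at the neutral mass and on another lower by the mass of a proton, with intensities equal within 0.5% in all 8 acquisitions of the untreated samples. For deoxycholic and cholic acid sulfate they were equal in the streptomycin samples too. A further row of equal intensity stood lower than the neutral mass by the spacing of hydrogen chloride in each case, at 420.2779, 436.2728 and 452.2678 Da. These sulfate values are each given once below, but the counts of rows include both rows at the proton spacing. The paired acquisitions of a sample differed by a median of 0.016 on the log2 scale over 89 pairs of member values, and by 0.30 at most. In a further pair, of taurodeoxycholic acid in streptomycin sample 4, only the first acquisition listed the mass.

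**Figure D1:**
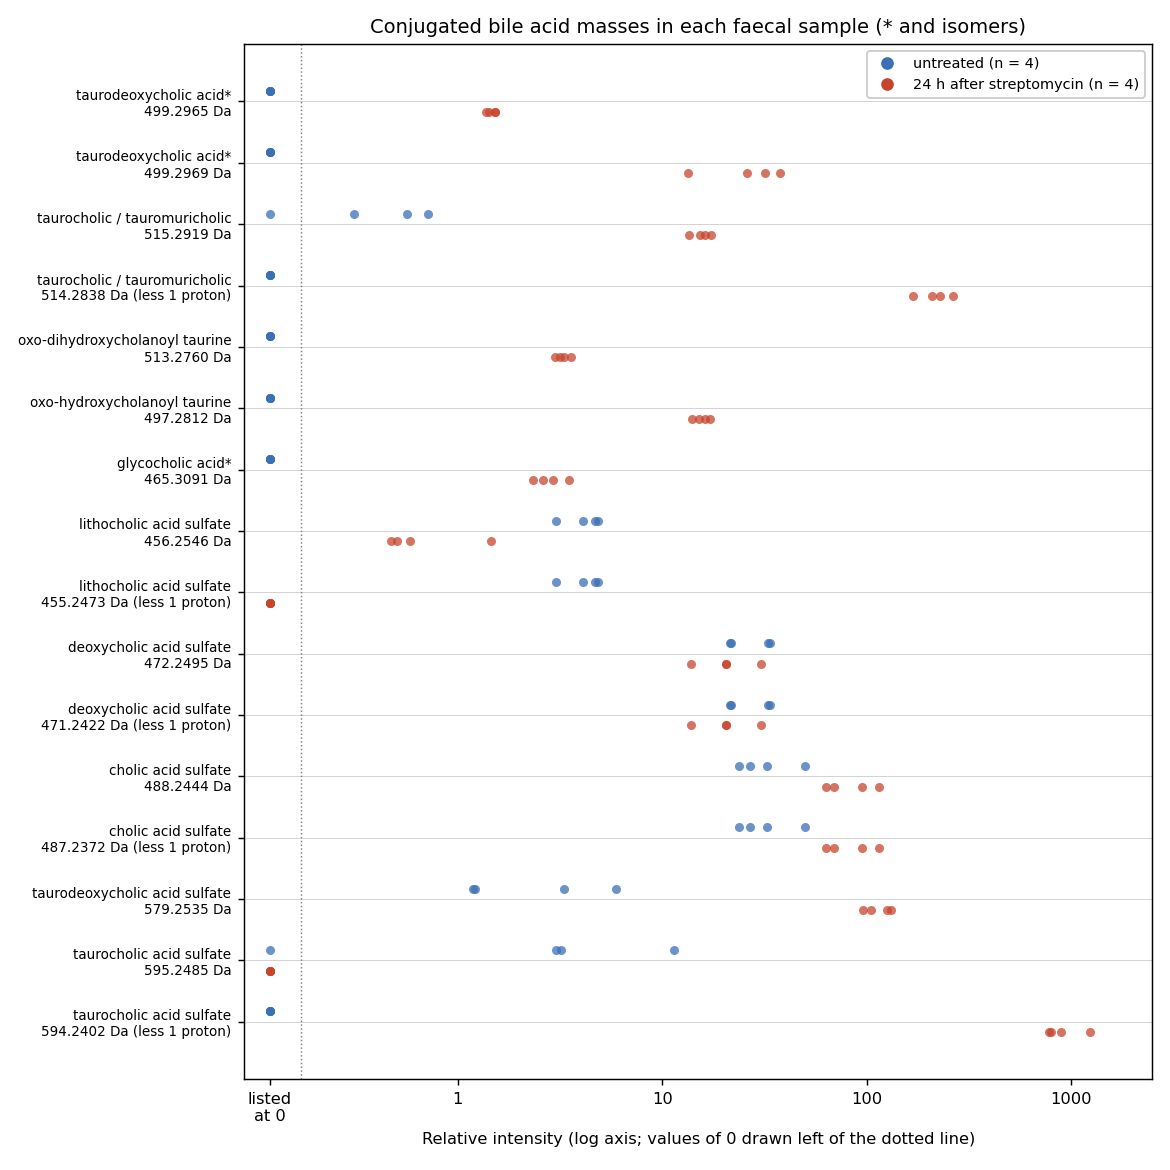
Relative intensity (log axis) of the 16 conjugated bile acid rows, 1 point per sample, with untreated samples in blue and streptomycin samples in red (n = 4 each); values of 0 are drawn left of the dotted line. All taurine and glycine rows except the neutral row of taurocholic acid sulfate at 595.2485 Da lie to the right in streptomycin samples, while the 3 sulfates without taurine run from lower, through overlapping, to higher.

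Of the 16 rows 7 were listed in both groups, 7 in streptomycin samples only and 2 in untreated samples only. A row listed in a single group had to differ, and of all the masses 47.3% were listed in streptomycin samples only and 26.6% in untreated samples only. Among the 7 rows in both groups, limma called 4 higher and 1 lower at an adjusted p under 0.05, against 20.7% higher and 38.7% lower of the 633 masses in both groups. Of these masses 131 were higher and 245 lower, but the balance depends on the scale: 190 and 177 after division by the median ratio, and 65 and 321 after division by the calibrants. The 4 higher rows were 3 separate signals, since cholic acid sulfate stood on 2 rows. Deoxycholic acid sulfate did too, so the 7 rows stand for 5 conjugates. The share called in either direction was 59.4% of the 633 masses. The groups did not overlap in 5 of the 7 rows, 4 higher and 1 lower, against 59.7% of the 633 masses, 20.1% higher and 39.7% lower, so the count in either direction is near the background. The median log2 change of the 7 rows was 1.38 and that of the 633 masses -0.47. Over all rows limma called 11 of the 16 higher and 3 lower, against 52.7% and 36.7% of the table.

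Taurocholic or tauromuricholic acid (C26H45NO7S), the main taurine conjugates of mouse bile, stood at 515.2919 Da, 0.44 ppm from the formula mass. The untreated samples were at 0.718, 0.563, 0.311 and 0, and the streptomycin samples at 17.2, 16.2, 13.6 and 15.3. The lowest streptomycin sample was far above the highest untreated one, and the ratio of means was 39.2. The log2 change was 5.64 ± 0.67 (SE, n = 4 per group; limma adjusted p = 8.64e-05), with 1 of the 633 masses in both groups rising by more. It depends on the value put in for the 0 of untreated sample 4, and without that sample it was 4.95 (limma adjusted p = 3.84e-06). With all values under 1 set to 1 it was 3.96 (limma adjusted p = 4.45e-08). At the mass less 1 proton, 514.2838 Da, the streptomycin samples were at 264, 229, 168 and 209, and every untreated sample was listed at 0. This is the rank 17 mass of the streptomycin samples. It also lies 0.97 ppm from oxo-dihydroxycholanoyl taurine plus 1 proton, nearer than its 1.16 ppm from taurocholic acid less 1 proton. A mass at the sulfur-34 spacing from the neutral formula, 517.2878 Da, was at 47.3% ± 13.4 of 515.2919 Da (SD, n = 4), against 4.47% for 1 sulfur at natural abundance. The mass 517.2878 Da was listed in 7 of 8 streptomycin acquisitions, and the other entered as 0. It was at 3.42% ± 0.94 of 514.2838 Da, but does not stand at the sulfur-34 spacing from that row. The spacing from 514.2838 Da was not searched.

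Taurodeoxycholic acid and its isomers (C26H45NO6S), which carry 1 hydroxyl less and include the taurine conjugates of ursodeoxycholic and chenodeoxycholic acid, stood on 2 rows. At 499.2969 Da the streptomycin samples were at 37.6, 31.9, 25.9 and 13.4, the last from 26.9 in the first acquisition and 0 in the second. At 499.2965 Da they were at 1.51, 1.52, 1.43 and 1.37. On both rows all 4 untreated samples were listed at 0, so the dihydroxy and trihydroxy taurine conjugates shared their direction and no change in the ratio between them could be tested.

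The oxo forms of the taurine conjugates, in which a hydroxyl is oxidised, were also listed in streptomycin samples only. Oxo-dihydroxycholanoyl taurine (C26H43NO7S), at 513.2760 Da, was at 3.30, 3.60, 3.00 and 3.16. Oxo-hydroxycholanoyl taurine (C26H43NO6S), at 497.2812 Da, was at 15.1, 16.1, 13.9 and 17.0. The streptomycin samples were close to each other on both rows. The second formula is also that of taurocholic acid less water and of taurocholic acid sulfate less sulfuric acid, so the row cannot be told apart from a fragment of either. Taurolithocholic acid (C26H45NO5S), the monohydroxy conjugate, had no row within 3 ppm.

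Glycine conjugates were represented by 1 of 3 formulas. Glycocholic acid and its isomers (C26H43NO6), at 465.3091 Da, were at 2.93, 2.33, 2.61 and 3.48 in the streptomycin samples and listed at 0 in every untreated sample. The streptomycin samples were close together on this row. The formulas of glycodeoxycholic and glycolithocholic acid had no row. A mass at glycodeoxycholic acid plus hydrogen chloride, 485.2908 Da, was listed in streptomycin samples 2 to 4 only, at 3.41, 4.53 and 5.23.

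Some taurine conjugates also carry a sulfate. Taurodeoxycholic acid sulfate (C26H45NO9S2), at 579.2535 Da and 0.13 ppm from the formula mass, was at 5.97, 3.32, 1.19 and 1.22 in untreated samples. The streptomycin samples were at 131, 126, 96.3 and 105, all of them far above, and the ratio of means was 39.2. The log2 change was 5.62 ± 0.53 (SE, n = 4 per group; limma adjusted p = 1.99e-05), with 2 of the 633 masses in both groups rising by more. Unlike taurocholic acid, this row was listed in every sample, and its change rests on no value put in for 0.

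Taurocholic acid sulfate (C26H45NO10S2) stood on rows that ran in opposite directions. At the neutral mass, 595.2485 Da, the untreated samples were at 11.5, 0, 3.03 and 3.20 and every streptomycin sample was listed at 0. At the mass less 1 proton, 594.2402 Da, the streptomycin samples were at 888, 1234, 796 and 781 and every untreated sample was listed at 0. The neutral row lay 0.019 ppm from the formula mass and the other 1.70 ppm below the mass less 1 proton, within the stated accuracy of 2 ppm. This is the largest deviation among the members, whose median was 0.13 ppm. Of the 16 rows 14 lay within 0.6 ppm, and the 2 over 1 ppm were 594.2402 and 514.2838 Da. The names of these 2 rows are therefore less certain. When the higher of both rows was taken in each sample, a choice made with the values in view, the untreated mean was 4.43 ± 4.93 and the streptomycin mean 925 ± 212 (SD, n = 4 each). The values then come from different rows in the 2 groups, so no fold or test of the formula is given.

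Other ion forms of taurocholic acid sulfate were all listed in streptomycin samples only. With sodium for hydrogen, at 617.2305 Da, the 4 samples were at 7.28, 5.03, 6.33 and 7.24, and with potassium for hydrogen, at 633.2045 Da, at 1.16, 1.01, 0.850 and 1.04. With ammonia, at 612.2751 Da, they were at 7.67, 16.5, 9.13 and 8.46. Less water, at 577.2381 Da, they were at 43.5, 22.4, 33.1 and 43.1, with 7 of 8 acquisitions listed and the other entered as 0. These 4 masses lay within 0.31 ppm of their calculated values. Near taurodeoxycholic acid sulfate less 1 proton the closest rows lay outside the tolerance, at 4.33 and 8.12 ppm. They had streptomycin means of 0.395 and 9.87, each with 7 of 8 acquisitions listed, and every untreated sample was at 0. No row stood at the sulfur-34 spacing from the neutral mass of either taurine conjugate sulfate, although 2 sulfurs would give 8.95% of the parent. The spacing from the row less 1 proton, 594.2402 Da, was not searched. The formulas of taurodeoxycholic and taurocholic acid are those of their sulfates less sulfur trioxide, so a fragment of the sulfate would appear on the same row. This was not tested. Taurolithocholic acid sulfate had no row.

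Masses at other ion forms of the remaining taurine conjugates were, but for the hydrogen chloride masses given further on, also listed in streptomycin samples only. With ammonia, taurocholic acid at 532.3183 Da was at 5.04, 7.40, 4.20 and 4.57 and oxo-dihydroxycholanoyl taurine at 530.3026 Da at 1.78, 2.78, 1.56 and 1.77. Less water, the most intense was oxo-hydroxycholanoyl taurine at 479.2705 Da, with 30.4, 34.8, 29.04 and 33.7. The other water-loss masses, at 479.2706, 481.2861, 481.2863, 495.2655, 495.2656 and 561.2435 Da, had streptomycin means between 1.11 and 7.45. That of 495.2655 Da, 5.58, was above that of its stated parent, oxo-dihydroxycholanoyl taurine at 513.2760 Da, at 3.26. Oxo-hydroxycholanoyl taurine with sodium for hydrogen, at 519.2631 Da, was at 3.11, 1.10, 2.51 and 2.66. A mass near the sulfur-34 spacing from its neutral row, 499.2780 Da, was at 6.20% ± 0.40 of that row (SD, n = 4), against 4.47% at natural abundance. It lay 2.19 ppm off, beyond the stated accuracy of 2 ppm, so this name is less certain. Among the plain sulfates, cholic acid sulfate with sodium for hydrogen, at 510.2264 Da, was listed in streptomycin samples 1, 3 and 4 only, at 1.04, 1.83 and 2.15.

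**Figure D2:**
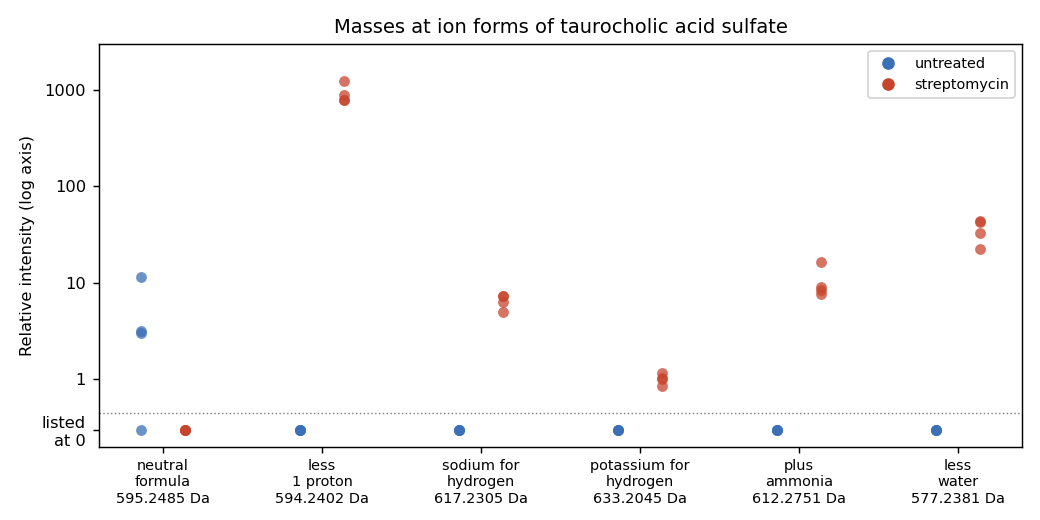
Relative intensity (log axis) at the neutral mass of taurocholic acid sulfate, the mass less 1 proton and 4 other ion forms, 1 point per sample, untreated in blue and streptomycin in red (n = 4 each), with 0 drawn below the dotted line. Only the neutral row is listed in untreated samples, and the other 5 rows are listed in all 4 streptomycin samples alone.

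The sulfates without taurine differed by the number of hydroxyls. Lithocholic acid sulfate (C24H40O6S), the sulfate of a monohydroxy acid that bacteria make, stood at 456.2546 Da, 0.088 ppm from the formula mass. It was at 4.87, 4.70, 3.02 and 4.08 in untreated samples and at 0.582, 0.472, 0.506 and 1.45 in streptomycin samples. No streptomycin sample reached the lowest untreated one. The log2 change was -2.61 ± 0.38 (SE, n = 4 per group; limma adjusted p = 0.000281), and -1.90 with values under 1 set to 1 (limma adjusted p = 0.000206). Its row less 1 proton, 455.2473 Da, repeated the untreated values and was listed at 0 in the streptomycin samples. The streptomycin values at 456.2546 Da had no row of equal intensity. Whether they come from the same signal as the untreated values was not tested, so the size of the fall is uncertain.

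Deoxycholic acid sulfate (C24H40O7S), at 472.2495 Da, was at 32.9, 33.6, 21.8 and 21.4 in untreated samples and at 20.6, 13.9, 20.6 and 30.6 in streptomycin samples. The groups overlapped, and the log2 change of -0.38 ± 0.28 did not pass (SE, n = 4 per group; limma adjusted p = 0.222). Its 95% interval from limma ran from -1.02 to 0.27, so it holds both 0 and the median change of the 633 masses in both groups. Cholic acid sulfate (C24H40O8S), at 488.2444 Da, was at 32.6, 50.0, 26.8 and 23.8 in untreated samples and at 63.0, 68.9, 95.2 and 115 in streptomycin samples. The lowest streptomycin sample stood above the highest untreated one. The log2 change was 1.38 ± 0.29 (SE, n = 4 per group; limma adjusted p = 0.00259). Its sulfur-34 partner, 490.2404 Da, was at 3.16% ± 0.35 of the parent over all 8 samples. The partner of deoxycholic acid sulfate, 474.2456 Da, had values in the untreated samples alone, at 2.26% ± 0.87 of the parent (SD, n = 4). It was listed in 6 of 8 untreated acquisitions, and the others entered as 0, which lowers this share.

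Water-loss masses of the 3 sulfates were listed in both groups. At lithocholic acid sulfate less water, 438.2440 Da, the untreated samples were at 2.22, 1.78, 1.30 and 1.81 and the streptomycin samples at 1.97, 1.92, 2.30 and 4.22, unlike the fall on the parent row. At cholic acid sulfate less water, 470.2339 Da, they were at 9.52, 9.50, 7.26 and 7.40 and at 7.77, 5.16, 7.65 and 10.4, unlike the rise on the parent row. At deoxycholic acid sulfate less water, 454.2389 Da, they were at 3.08, 3.27, 2.20 and 2.42 and at 2.18, 0.651, 2.37 and 3.30. The groups overlapped on all 3 rows, and which compounds these are is not settled by mass.

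**Figure D3:**
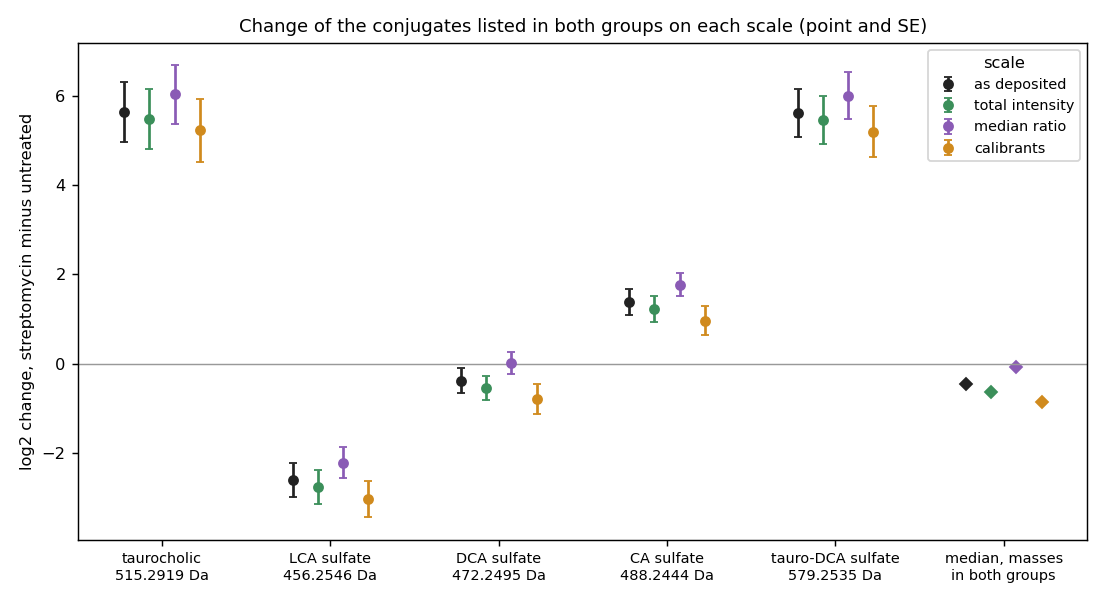
The log2 change (streptomycin minus untreated, point and SE from limma, 4 samples per group) of the 5 conjugates listed in both groups, on the deposited scale and after division by total intensity, by the median ratio and by the calibrants; diamonds give the median change of the 633 masses in both groups. LCA, DCA and CA are lithocholic, deoxycholic and cholic acid. Rescaling shifts all 5 by nearly the same amount, so their order could hardly change. Deoxycholic acid sulfate moves from -0.80 on the calibrant scale to 0.010 on the median-ratio scale.

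The scale moved the values but not the calls of these 5 conjugates. For the 633 masses the median change was -0.86 on the calibrant scale, -0.63 after division by total intensity and -0.08 on the median-ratio scale, beside -0.47 without rescaling. Cholic acid sulfate changed by 0.96 on the calibrant scale (limma adjusted p = 0.0213) and by 1.77 on the median-ratio scale (limma adjusted p = 0.000345). Lithocholic acid sulfate fell by 3.03 and 2.22 on these scales, taurocholic acid rose by 5.23 and 6.03, and taurodeoxycholic acid sulfate rose by 5.20 and 6.01. Deoxycholic acid sulfate passed on no scale but came close on the calibrant scale, at -0.80 (limma adjusted p = 0.0531).

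Ratios of conjugates within a sample do not depend on the scale. Of 19 pairs of conjugates that differ by 1 named change in structure, 3 had both masses in at least 3 samples of both groups and were tested. The other 16 lacked a row or were listed at 0 in a group. Among the sulfates, each added hydroxyl went with a ratio that was higher after streptomycin. The log2 ratio of deoxycholic to lithocholic acid sulfate went from 2.71 ± 0.22 to 4.94 ± 0.41 (SD, n = 4 each), a difference of 2.23 with an exact interval of 1.55 to 2.96. Whether the lithocholic acid sulfate row holds the same signal in both groups was not tested. The log2 ratio of cholic to deoxycholic acid sulfate went from 0.25 ± 0.25 to 2.01 ± 0.31, a difference of 1.76 with an interval of 1.04 to 2.33. Neither ratio overlapped between the groups.

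Within the cholic acid core, the conjugate with sulfate was compared with that with taurine. The log2 ratio of cholic acid sulfate to taurocholic acid went from 6.68 ± 1.18 to 2.42 ± 0.52 (SD, n = 4 each), a difference of -4.27 with an interval of -6.46 to -2.60. Untreated sample 4, at 0 for taurocholic acid, entered this ratio with the value put in for 0, and without it the difference was -3.72. All 3 pairs had an adjusted p = 0.0286 over the 3 (exact two-sided permutation test, the smallest p that 4 against 4 samples allow). The intervals cover 97.1% and run from the smallest to the largest of the 16 differences between a streptomycin and an untreated sample. The pairs of taurine against glycine, of oxo against hydroxyl, and of a taurine conjugate with and without sulfate could not be tested.

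**Figure D4:**
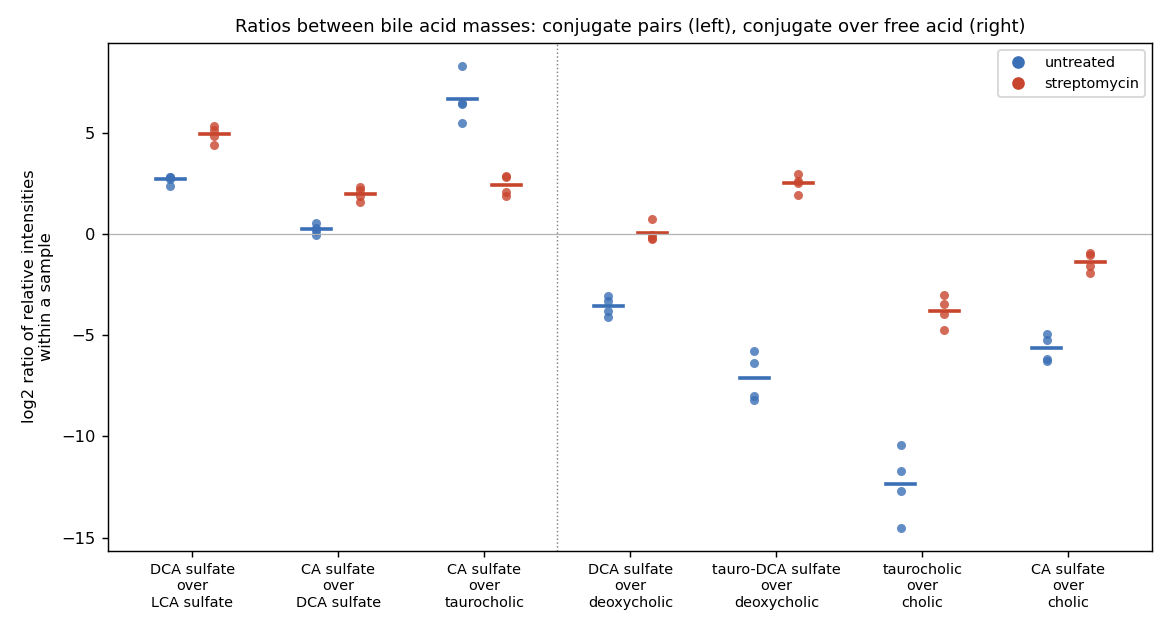
The log2 ratio of relative intensities of 2 masses within each sample, untreated in blue and streptomycin in red (n = 4 each), with bars at the group means; the 3 ratios on the left compare conjugates with each other and the 4 on the right compare a conjugate with the free acid of its core (LCA, DCA and CA are lithocholic, deoxycholic and cholic acid). In none of the 7 ratios do the groups overlap, and all 4 ratios to the free acid are higher in streptomycin samples.

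Most rows of the free acids were lower after streptomycin. Of 12 rows of unconjugated bile acids none was higher, 8 were lower and 4 did not pass (limma adjusted p under 0.05). Of all masses 52.7% were higher and 36.7% lower. Of the 12 rows 4, all of them lower, were listed in untreated samples only and had to differ, against 26.6% of all masses. Among the 8 rows in both groups 4 were lower, 50% against 38.7% of the 633 masses. After division by the median ratio 2 of the 4 rows that did not pass were higher. These were the oxo-hydroxycholanoic acid row at 390.2770 Da, by 0.79 (limma adjusted p = 0.00674), and tetrahydroxycholanoic acid at 424.2826 Da, by 0.78 (limma adjusted p = 0.00568). Cholic or muricholic acid, at 408.2873 Da, was at 988, 1885, 2042 and 1717 in untreated samples and at 188, 132, 360 and 238 in streptomycin samples. A weaker row of the same formula, 408.2876 Da, had means of 14.6 ± 3.47 and 10.1 ± 5.76 (SD, n = 4 each) and did not pass (limma adjusted p = 0.165). On the main row of deoxycholic acid and isomers, 392.2928 Da, the untreated samples measured 330, 276, 307 and 363 and the streptomycin samples 21.0, 15.8, 24.7 and 17.98. A second row, 392.2925 Da, and both rows of oxo-cholanoic acid, at 374.2821 and 374.2823 Da, had untreated means of 12.2, 7.18 and 10.8 and were listed at 0 after streptomycin. The oxo acids, the free cores of the oxo taurine conjugates, differed between rows of one formula. Oxo-hydroxycholanoic acid measured 159, 209, 212 and 118 before and 207, 259, 224 and 212 after streptomycin at 390.2770 Da, with overlapping groups. At 390.2772 Da it measured 142, 128, 148 and 140 before and 6.68, 5.59, 16.8 and 22.3 after, with no overlap. Oxo-dihydroxycholanoic acid had 2 rows at 406.2718 Da, of which the stronger went from 300.3 ± 77.5 to 56.5 ± 38.3 and the weaker from 7.55 ± 2.38 to 7.69 ± 3.47 (SD, n = 4 each). Tetrahydroxycholanoic acid went from 11.7 ± 2.43 to 15.4 ± 3.06 and did not pass without rescaling (limma adjusted p = 0.0891). Lithocholic acid, at 376.2979 Da, was at 90.3, 88.0, 109 and 153 before treatment and at 0 in every streptomycin sample. The neutral row of its sulfate was still listed in all 4, but the row of the sulfate less 1 proton was not.

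Of 14 pairs of a conjugate and its free acid 4 could be tested, and in all 4 the ratio of conjugate to free acid was higher in streptomycin samples. For taurocholic over cholic acid the log2 ratio went from -12.33 ± 1.72 to -3.79 ± 0.73 (SD, n = 4 each), a difference of 8.54 with an interval of 5.70 to 11.48, and 7.82 without untreated sample 4. For taurodeoxycholic acid sulfate over deoxycholic acid it went from -7.10 ± 1.20 to 2.54 ± 0.43, a difference of 9.64 with an interval of 7.75 to 11.22. For the plain sulfates the values were smaller. Cholic acid sulfate over cholic acid differed by 4.28, with an interval of 3.00 to 5.31, and deoxycholic acid sulfate over deoxycholic acid by 3.64, with an interval of 2.78 to 4.85. Each had an adjusted p = 0.0286 over the 4 pairs (exact two-sided permutation test). With the weaker row of cholic acid, which is nearer to the formula mass, the differences for cholic acid sulfate and taurocholic acid were 2.09 and 6.36. For the cholic acid core the difference between taurine and sulfate is the ratio of cholic acid sulfate to taurocholic acid tested above, and for the deoxycholic acid core it was not tested.

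**Figure D5:**
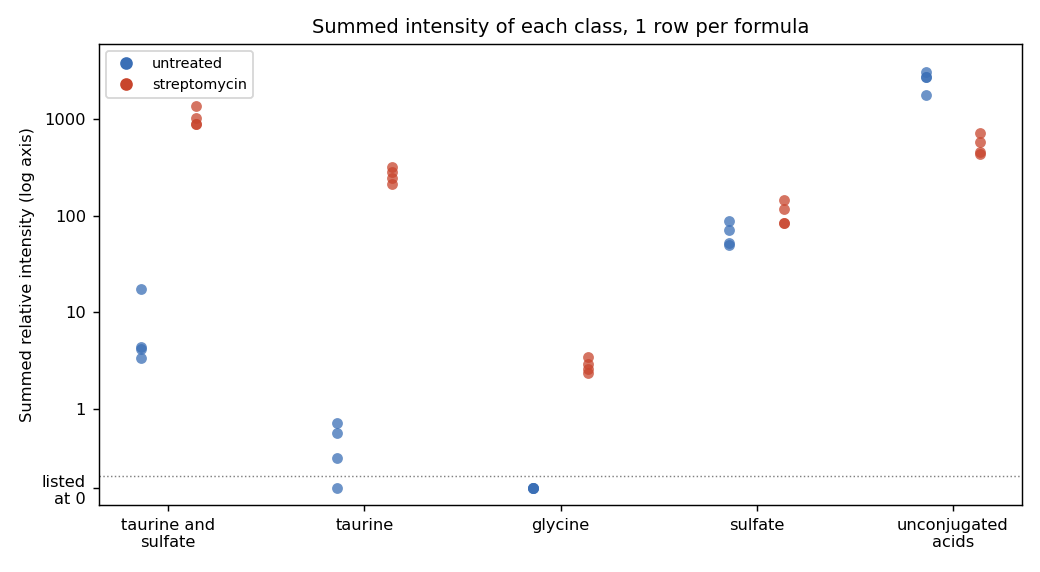
Summed relative intensity (log axis) per sample of each class, taking the highest row of each formula among the conjugates and the most intense row of each formula among the free acids; untreated in blue, streptomycin in red, 0 drawn below the dotted line (n = 4 each). The taurine conjugate sulfates lie between 887 and 1360 in streptomycin samples and between 3.32 and 17.4 in untreated samples, while the free acids lie between 440 and 710 and between 1796 and 3071. For taurocholic acid and its sulfate the values come from different rows in the 2 groups.

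Summed by class with 1 row per formula, the taurine conjugate sulfates went from 7.35 ± 6.75 to 1039 ± 222 (SD, n = 4 each), given as a description without a test. For taurocholic acid and its sulfate the untreated values are from the neutral rows and the streptomycin values from the rows less 1 proton. No fold is therefore read from these sums. The taurine conjugates without sulfate were at 0.398 ± 0.314 and 264 ± 47.0, and the sulfates without taurine at 64.9 ± 18.3 and 108 ± 30.3. The 10 conjugate formulas together made up 0.364% ± 0.101 of the total intensity before and 6.36% ± 1.12 after streptomycin. The 7 formulas of free acids made up 12.98% ± 2.78 and 2.46% ± 0.57. In untreated samples most of the conjugate signal was on the plain sulfates, and in streptomycin samples on the taurine conjugate sulfates. Of the streptomycin mean of 1413 for all conjugates, 594.2402 Da gave 925 and 514.2838 Da gave 218. The second of these rows lies nearer to another reading, as given above. The part of ion forms on other rows in these sums was not tested.

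Masses at hydrogen chloride spacings of the taurine conjugates went against the neutral rows. At taurocholic acid plus hydrogen chloride, 551.2685 Da, the untreated samples were at 47.6, 58.5, 70.8 and 65.5 and the streptomycin samples at 23.1, 13.5, 20.3 and 32.5. At taurodeoxycholic acid plus hydrogen chloride, 535.2736 Da, they were at 40.6, 51.1, 47.6 and 56.0 and at 18.6, 12.8, 16.5 and 27.01. The groups did not overlap on either row, and both were lower after streptomycin. Which compounds they are is not settled by mass.

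Other conjugates that belong to the same chemistry were few. Among glucuronides, another host conjugate, lithocholic and deoxycholic acid glucuronide were each listed in streptomycin samples 2 to 4 only, at 1.71, 2.27 and 2.35 (552.3298 Da) and at 4.46, 4.34 and 7.53 (568.3233 Da, 2.55 ppm from the formula mass). Cholic acid glucuronide had no row. Sterol sulfates, made by related host enzymes, had 3 rows, of which 2 were higher and 1 was listed before treatment alone. Cholesterol sulfate, at 466.3118 Da, was at 11.7, 15.6, 11.7 and 10.2 in untreated and at 28.4, 16.05, 27.5 and 27.8 in streptomycin samples. Its log2 change was 1.00 ± 0.23 (SE, n = 4 per group; limma adjusted p = 0.00387), but on the calibrant scale it was 0.59 and did not pass (limma adjusted p = 0.0834). Cholestanepentol sulfate, at 532.3072 Da, had means of 3.89 ± 0.81 and 5.58 ± 0.77 (SD, n = 4 each) and overlapping groups. Its log2 change of 0.54 ± 0.18 passed (SE; limma adjusted p = 0.0243), but not on the calibrant scale, at 0.12 (limma adjusted p = 0.512), nor after division by total intensity, at 0.38 (limma adjusted p = 0.0798). Cholestanetetrol sulfate, at 516.3124 Da, had an untreated mean of 3.30 ± 0.48 and was at 0 in every streptomycin sample. Cholic acid amides of phenylalanine, tyrosine, leucine, alanine and serine, and taurine amides of acetate and of long fatty acids, had no row within 3 ppm.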

How the data were processed

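The deposited values are relative intensities, on a linear scale, for each neutral mass (in daltons) and acquisition, per the file headers. Spectra covered m/z 150 to 1100 in both ion modes, per the labels, and the steps that joined the modes and scaled the values are not stated in the sources here. A sample's value was the mean of both acquisitions, 0 included, and 0 was replaced by the lowest sample value, 0.0738, before taking log2. Every one of the 2429 masses had values in 3 or more samples of a group. They were fitted together in limma (lmFit, eBayes; 4 against 4 samples, no replicate block), p-values were adjusted by Benjamini-Hochberg, and 0.05 was the threshold. For ratios the most intense row, at the neutral mass first, stood for a formula. On simulated data with 539 masses the fit recovered 75% of 2-fold and 98% of 4-fold changes, with 6 false calls among 179. These were modelled on masses listed in all 8 samples and held no 0. The rates therefore do not cover masses listed in a single group.

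The members, lists, pairs and tests were chosen with earlier results of these data known. By rule the text names all members, the free acids of the same cores, ion forms and isotopes of members, the calibrants, and up to 4 masses of each related list with the largest change among those that passed. The second row of cholic acid was added with its values in view. Alternatives covered the value for 0, scaling, detection filter, variance model, the methods' t-test, replicate block, single acquisitions, left-out samples, mass tolerance and ion form. R 4.3.3 ran limma 3.58.1, and Python 3.11.15 ran pyteomics 5.0.1.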

Additional observations from a re-analysis of the deposited data

Results flagged for a closer look

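Lithocholic acid sulfate at 456.2546 Da was at 1.45 in streptomycin sample 4, far above the next of its group at 0.582, with a gap of 0.888 of the group's range, above Dixon's critical value. Without this sample the log2 change was -2.98 (limma adjusted p = 4.64e-06) against -2.61 with it. It was the only one of 37 groups of member values and ratios that stood apart in this way, and chance gives about 1 in 20.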

How the results depend on the processing

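Of 146 alternative values for the 7 rows listed in both groups, 144 kept direction and call. These are not all separate values, since deoxycholic and cholic acid sulfate each enter with equal rows. The other 2 are deoxycholic acid sulfate and its equal row, 0.010 after division by the median ratio (limma adjusted p = 0.971). The neutral row of taurocholic acid ranged from 3.96, with values under 1 set to 1, to 6.05. Of the 16 rows, 11 were higher and 3 lower. These counts were 3 and 1 over masses in all 8 samples, 4 and 1 when masses of both groups were fitted alone, and 3 and 1 for the rows less 1 proton, since each tests fewer rows. With the highest row of each formula 8 were higher and 1 lower. That choice, like the fit of both groups' masses alone, was made after seeing the data. For taurocholic acid and its sulfate it takes different rows in the 2 groups. With adducts 16 were higher and 5 lower, and without 1 sample 11 were higher and 2 to 3 lower. For the 17 rows of the related lists 4 were higher and 9 lower, against 52.7% and 36.7% of all masses. The higher count was 6 on the median-ratio scale, 2 on the calibrant scale, 2 over masses in all 8 samples or in both groups alone, and 2 to 4 without 1 sample. The lower count was 4 over both of those sets. Of all masses, 744 were higher and 561 lower with values under 1 set to 1, 125 and 233 over masses in all 8 samples, and 116 and 229 with masses of both groups alone. The 633 masses had 131 higher and 245 lower, but 190 and 177 on the median-ratio scale and 65 and 321 on the calibrant scale. Same-numbered samples had correlations of 0.030 to 0.124 over 539 masses, and were the best match for untreated samples 3 and 4. With so few samples this cannot show whether a number marks a mouse. The numbers were not taken to pair samples, since the labels do not tie them to mice. The replicate block kept 11 higher and 3 lower members. As a block in the ratios (exact sign-flip test) it gave an unchanged difference of 2.23, 1.76, -4.27, 8.54, 9.64, 4.28 and 3.64 and p = 0.125, the smallest 4 pairs allow. Ratios with taurocholic acid could not be tested without untreated sample 1, 2 or 3. With values under 1 set to 1, deoxycholic over lithocholic acid sulfate differed by 1.52 and cholic acid sulfate over taurocholic acid by -2.58. The files give no ion counts, so what depth limits cannot be stated.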
